A study of Mus musculus with 6 samples.

Results

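Fibroblast growth factors (FGFs), hepatocyte growth factor (HGF) and their receptors were followed in mouse corneas before and after an alkali burn. The 10 genes were Fgf1, Fgf2, Fgf7, Fgf10, Hgf, Fgfr1, Fgfr2, Fgfr3, Met and Fgfbp1. They were named as a list of ligands, receptors and 1 carrier protein, and each matched 1 row of the deposited gene table by its symbol, so that 10 of 28539 loci are described. Poly(A)-selected RNA came from whole corneas of female C57BL/6J mice aged 6 to 8 weeks. There were 3 groups of 2 samples: untreated corneas (day 0), and corneas 5 days and 15 days after treatment by alkali burn. No other allele, vector or agent is named for these samples. How many corneas or animals made up a sample is not given in the sources used here.

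The authors' unit is FPKM, which corrects fragment numbers for transcript length and library size. They deposited 1 value per gene and group, pooled over both samples. The range in brackets after a value is the authors' own interval for that group, whose confidence level is not given in the sources used here. Single samples have no columns in the table. Differences are therefore described without replicate error, tests or p-values, and read depth cannot be read from FPKM and is unknown. A gene is called apart between 2 groups when 3 things hold: the larger FPKM is 1 or more, the log2 ratio after adding 1 to each FPKM is 1 or more in size (a 2-fold difference on that scale), and the authors' intervals do not overlap. Adding 1 understates the difference of low genes. In whole corneas, fewer cells of a type and less RNA per cell cannot be told apart.

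FGFs are secreted ligands that bind receptor tyrosine kinases together with heparan sulfate chains, and the bound receptor signals through adaptor proteins to the ERK pathway. HGF acts in a parallel way on one receptor, the kinase MET, after proteases cut its precursor. In the cornea, fibroblasts and keratocytes of the stroma are known sources of FGF7 (keratinocyte growth factor) and HGF, while the epithelium carries FGFR2 and MET. FGF2 is a classic inducer of corneal vessels. Defining markers of the labelled tissue were present at day 0, with the keratocyte proteoglycan gene Kera at 516 FPKM (276 to 755) and its relative Lum at 237 (129 to 346). Of the basal epithelium, Krt14 stood at 180 (92.4 to 267), and its partner Krt5 at 1199 with an interval that reaches 0 (0 to 2445).

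After the burn, values of a pair of ligand genes were lower, that of 1 receptor gene was higher, and most of the list was not apart. At day 5, 2 of the 10 genes, the ligands Fgf1 and Fgf10, were lower and apart from day 0, against 2.50% of the 15576 loci whose larger FPKM was 1 or more. The receptor gene Fgfr3 alone was higher and apart, against 3.42% of all loci. At day 15, Fgf1 and Fgf10 were again lower and apart, against a background of 1.81%, and none of the 9 genes with enough signal was higher and apart, against 2.91%. Between day 15 and day 5 none of 9 was apart in either direction, where the background was 0.395% higher and 0.388% lower. With 10 genes, 1 gene is a large share, so these percentages place the counts and do not make the list stand out. Both comparisons with day 0 use the same day 0 columns. The median log2 ratio of the 10 genes was 0.08 at day 5 and -0.02 at day 15 against day 0, and over all loci tested it was -0.09 and -0.10.

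**Figure D1:**
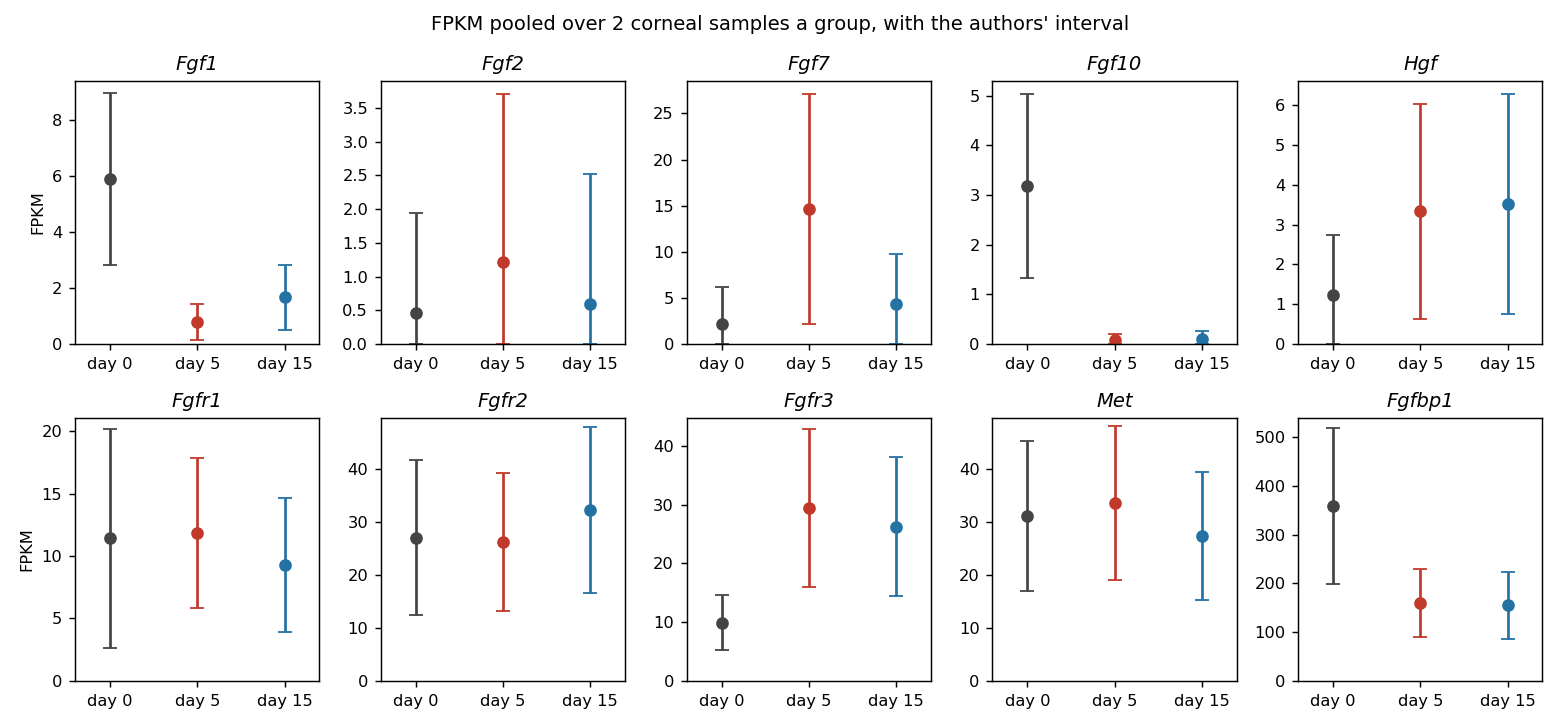
FPKM (y axis, linear from 0, a scale for each gene) of the 10 genes at day 0, day 5 and day 15 (x axis). Points are the authors' values pooled over 2 samples and bars their intervals. Fgf1 and Fgf10 stand below day 0 at both later days, with intervals clear of it. Fgfr3 stands above day 0 at both, with an interval clear of it at day 5 but not at day 15. The intervals of every other gene overlap in all 3 comparisons.

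Fgf1 encodes a ligand without a signal peptide that can bind all FGF receptors. It had an FPKM of 5.89 (2.83 to 8.94) at day 0, 0.792 (0.133 to 1.45) at day 5 and 1.67 (0.511 to 2.83) at day 15. It was the highest of the 5 ligands before the burn and the second lowest at day 5. The value was 7.43-fold lower at day 5, and the nearest ends of both intervals were still 1.95-fold away from each other. At day 15 it was 3.53-fold lower, but the upper end at day 15 and the lower end at day 0 were only 0.00337 FPKM away from each other, and the call was lost when the groups were rescaled by their median ratio or upper quartile. On mm10 coordinates of the GENCODE M21 annotation the gene lies on the minus strand of chromosome 18, from 38838673 to 38929472.

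Fgf2 encodes the basic FGF, also exported without a signal peptide. Its FPKM was 0.456 (0 to 1.95) at day 0, 1.21 (0 to 3.71) at day 5 and 0.600 (0 to 2.52) at day 15. All 3 intervals start at 0 and overlap, and Fgf2 was the lowest of the 10 genes at day 0. The log2 ratio of day 5 to day 0 was 0.60, and the interval ends allow anything from -1.56 to 2.24. At day 15 against day 0 it had too little signal to be called either way. The gene (chromosome 3, 37348346 to 37410108, plus strand) overlaps exons of Nudt6 on the other strand and of the predicted gene Gm43439 on the same strand. The labels give no strandedness, and reads of same-strand neighbours cannot be told apart by strand at all, so the low value of Fgf2 is uncertain in addition.

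Fgf10 and Fgf7 are close relatives that both act through the epithelial form of FGFR2, and their values lay on opposite sides of day 0 at day 5. Fgf10 stood at 3.18 (1.33 to 5.04) at day 0, 0.0859 (0 to 0.202) at day 5 and 0.115 (0 to 0.258) at day 15. The 2 later values are near 0 and their intervals include it, which leaves a fold imprecise. Taken at face value Fgf10 was 37.0-fold lower at day 5 and 27.8-fold lower at day 15. Between the nearest interval ends the fold was 6.55 at day 5 and 5.13 at day 15, wider than for any other gene of the 10. On the log2 scale with 1 added, these differences were -1.95 and -1.91, and they moved to -4.14 and -3.94 when 0.1 was added instead. Fgf10 was the lowest of the 10 genes at both later days.

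Fgf7 had an FPKM of 2.19 (0 to 6.17) at day 0, 14.7 (2.22 to 27.1) at day 5 and 4.35 (0 to 9.79) at day 15. It was the highest ligand at day 5, 6.71-fold above its day 0 value, yet the intervals overlapped by 3.95 FPKM and the gene was not apart. Its log2 ratio at day 5 was 2.30, the largest of the 10 genes in size, with interval ends from -1.15 to 4.81. From day 5 to day 15 the value was 3.38-fold lower, again with overlapping intervals. Of FPKM summed over Fgf7 and Fgf10, Fgf10 made up 59.3% at day 0 (17.7% to 100% over the interval ends), 0.582% at day 5 (0% to 8.35%) and 2.57% at day 15. The ranges at day 0 and day 5 do not meet, while at day 15 the interval ends leave the share undefined, from 0% to 100%. Fgf7 (chromosome 2, 126034658 to 126091185, plus strand) shares the authors' assembled locus with Galk2 and Fam227b, which have rows of their own. Fgf10 (chromosome 13, 118669791 to 118792115, plus strand) overlaps exons of the predicted gene Gm16263 on the other strand.

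The 250 bases before the annotated start of these ligands, and of the receptor gene Fgfr3, are shown because the values of Fgf10 were lower after the burn and those of Fgf7 and Fgfr3 higher, Fgf7 with overlapping intervals. They come from RefSeq on GRCm38.p6, the assembly that mm10 names, and are given 5′ to 3′ on the coding strand. Capitals mark 4 motifs searched on both strands: the letters TATAAA of the TATA box, the letters CCAAT of the box of that name, the letters GGGCGG of the GC box and the letters TGANTCA of an AP-1 site; GC boxes can overlap each other. Of 32851 RefSeq starts, 12.4% had the TATA letters in the same window, 33.8% CCAAT, 32.7% the GC box and 6.75% the AP-1 letters. The RefSeq start of Fgf10 lies well inside the GENCODE span given above and that of Fgfr3 just inside its own span, so that the annotations place these genes' first bases differently; the RefSeq starts match the starts of the authors' loci, 118714699 and 33721724. RefSeq starts were found for 8 of the 10 genes, all but Fgf1 and Fgfr1.
Fgf10, chr13:118714449-118714698, plus strand: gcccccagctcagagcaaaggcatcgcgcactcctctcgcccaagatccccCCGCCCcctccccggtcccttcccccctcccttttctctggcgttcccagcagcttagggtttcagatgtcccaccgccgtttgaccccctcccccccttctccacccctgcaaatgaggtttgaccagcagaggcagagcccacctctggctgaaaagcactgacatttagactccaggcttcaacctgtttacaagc
Fgf7, chr2:126034408-126034657, plus strand: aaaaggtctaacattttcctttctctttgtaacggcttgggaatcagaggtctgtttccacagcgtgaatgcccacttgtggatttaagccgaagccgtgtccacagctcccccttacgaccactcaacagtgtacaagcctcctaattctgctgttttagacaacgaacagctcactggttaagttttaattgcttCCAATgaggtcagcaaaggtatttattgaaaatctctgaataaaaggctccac
Fgfr3, chr5:33721474-33721723, plus strand: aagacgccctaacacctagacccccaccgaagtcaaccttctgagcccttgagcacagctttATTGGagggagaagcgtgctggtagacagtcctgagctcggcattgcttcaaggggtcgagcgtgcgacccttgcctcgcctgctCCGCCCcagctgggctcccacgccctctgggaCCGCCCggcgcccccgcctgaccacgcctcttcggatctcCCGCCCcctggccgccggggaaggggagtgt
The Fgf10 window is 61.2% G and C and holds 1 GC box, read on the minus strand, that begins 199 bases before the start. The Fgf7 window is 43.6% G and C, below the lower quartile of 45.2% over all starts, and holds 1 CCAAT box beginning 53 bases before the start. The first Fgfr3 start has 66.8% G and C, above the upper quartile of 61.2%, with 3 GC boxes at 103, 71 and 31 bases and 1 CCAAT box at 188 bases, all read on the minus strand. None of the 3 windows holds the TATA or the AP-1 letters as written. A second RefSeq start of Fgfr3, whose window is not shown, has 72.8% G and C, 2 GC boxes and none of the other motifs. A match of letters is a description and not evidence that a factor binds.

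Fgfbp1 encodes a secreted protein of epithelia that carries FGFs away from the matrix. It was by far the most abundant of the 10 genes, with values of 359 (199 to 518) at day 0, 160 (89.6 to 230) at day 5 and 155 (85.4 to 224) at day 15. It lay above 97.9% of all loci with FPKM of at least 1 at day 0 and above 95.8% and 95.4% at the later days. In every group its interval was clear of that of the next gene. The value was 2.24-fold lower at day 5 and 2.32-fold lower at day 15, with log2 ratios of -1.16 and -1.21. Its intervals overlapped with day 0 both times, by 31.1 and 25.2 FPKM, so that it was past the fold but not apart.

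The receptor genes had higher values than most ligand genes in all 3 groups. Fgfr3, a receptor known for its part in bone growth and epithelia, had an FPKM of 9.86 (5.19 to 14.5) at day 0, 29.4 (15.9 to 42.9) at day 5 and 26.3 (14.4 to 38.1) at day 15. Both later values were above day 0, 2.98-fold and 2.66-fold. The intervals were 1.39 FPKM clear of each other at day 5, only 1.10-fold away from each other at their nearest ends. At day 15 they overlapped by 0.101 FPKM, and the gene became higher and apart when the groups were rescaled by either alternative. The call at day 5 and the lack of one at day 15 are therefore no sign that the days differ, and between them Fgfr3 had a log2 ratio of -0.16. The gene (chromosome 5, 33721674 to 33737068, plus strand) overlaps exons of G630022F23Rik on the other strand.

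Fgfr2, whose epithelial splice form binds FGF7 and FGF10, stood at 27.0 (12.4 to 41.6), 26.2 (13.1 to 39.2) and 32.2 (16.6 to 47.8) FPKM at days 0, 5 and 15. Fgfr1, the main FGF receptor of mesenchymal cells, stood at 11.4 (2.66 to 20.2), 11.8 (5.83 to 17.8) and 9.28 (3.91 to 14.6). Neither was apart in any comparison, and the largest of their 6 log2 ratios in size was -0.32. The interval ends allow a log2 ratio of -1.60 to 1.59 for Fgfr2 and -1.63 to 2.36 for Fgfr1 at day 5, so that a 2-fold difference either way would not have been detectable. In GENCODE M21, exons of Fgfr1 overlap those of Gm16159 on the other strand, where reads may be shared. Exons of Fgfr2 overlap those of Ctbp2 on the same strand, but within a GENCODE span of 2960900 bases. The authors' Fgfr2 locus covers only 104542 bases and is shared with no other row, so shared reads are not shown for it. The table gives genes and not splice forms, and the epithelial and mesenchymal forms of a receptor cannot be told apart in it.

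Summed over the 3 FGF receptors, FPKM was 48.3 at day 0, 67.4 at day 5 and 67.7 at day 15. Fgfr3 made up 20.4% of the sum at day 0 (7.74% to 49.1% over the interval ends), 43.6% at day 5 (21.8% to 69.4%) and 38.8% at day 15 (18.8% to 65.0%). The shares of Fgfr2 were 55.9%, 38.8% and 47.5%. All of these ranges overlap. Before the burn Fgfr2 was the highest FGF receptor, at day 5 Fgfr3 had the higher value of the pair, and at day 15 Fgfr2 led again, with overlapping intervals except between Fgfr2 and Fgfr1 at day 15.

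**Figure D2:**
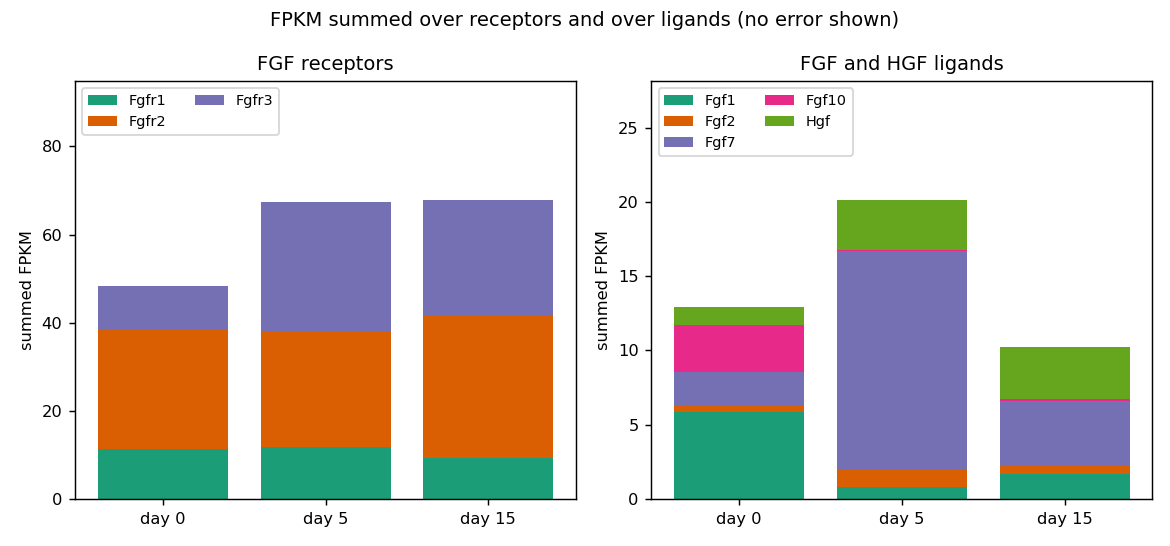
Stacked bars of FPKM (y axis) summed over Fgfr1, Fgfr2 and Fgfr3 (left) and over Fgf1, Fgf2, Fgf7, Fgf10 and Hgf (right) at day 0, day 5 and day 15. Fgfr3 makes up 20.4% of the receptor sum at day 0 and 43.6% at day 5, and Fgf7 holds 73.0% of the ligand sum at day 5; no error is drawn, and the intervals are wide.

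The ligand gene with the highest value was not the same before and after the burn. At day 0 the order was Fgf1, Fgf10, Fgf7, Hgf and Fgf2, and each gene's interval overlapped that of the next. At day 5 it was Fgf7, Hgf, Fgf2, Fgf1 and Fgf10. At day 15 it was Fgf7, Hgf, Fgf1, Fgf2 and Fgf10, with Fgf7 and Hgf almost level. Neighbours in the order had overlapping intervals at both later days too, so in no group was the highest ligand clear of the next. The ligand sum at days 0, 5 and 15 was 13.0, 20.1 and 10.2 FPKM. Fgf1 held 45.4% of it at day 0 (15.1% to 87.1% over the interval ends), 3.94% at day 5 (0.358% to 33.7%) and 16.3% at day 15. Fgf7 held 16.9%, 73.0% and 42.4%. These ranges overlap for both genes. In each group the FGF ligand genes lay below the receptor genes Fgfr2 and Met, and only Fgf7 at day 5 exceeded Fgfr1.

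Hgf, the ligand of MET, had an FPKM of 1.24 (0 to 2.73) at day 0, 3.33 (0.630 to 6.03) at day 5 and 3.52 (0.753 to 6.28) at day 15. The values at both later days were close to each other and above day 0, by 2.68-fold and 2.83-fold, but all intervals overlapped. Its log2 ratio was 0.95 at day 5 and 1.01 at day 15. Met, the receptor gene, stood at 31.1 (16.9 to 45.3), 33.6 (19.0 to 48.1) and 27.4 (15.3 to 39.6). It was the most abundant receptor gene at days 0 and 5 and the second at day 15, with log2 ratios of 0.11 and -0.18 to day 0. Over the interval ends its log2 ratio at day 5 could lie between -1.21 and 1.46. Hgf lies on chromosome 5 from 16553495 to 16620152 and Met on chromosome 6 from 17463800 to 17573980, both on the plus strand. Exons of Hgf overlap those of the predicted gene Gm43489 on the same strand.

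**Figure D3:**
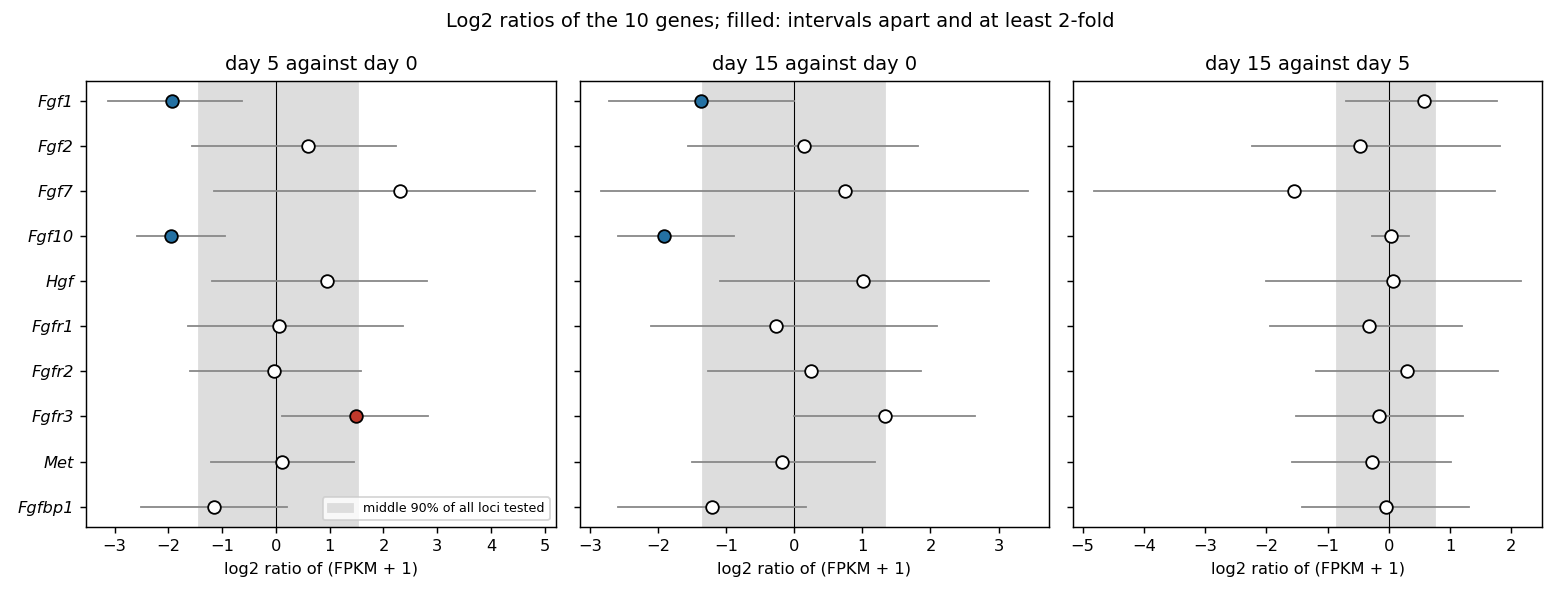
Log2 ratio of (FPKM + 1) (x axis) of each gene (y axis) in the 3 comparisons; thin lines run between the ratios of opposite interval ends, filled points are called apart (red higher, blue lower), and grey spans the middle 90% of all loci tested. Fgf1 and Fgf10 lie to the left at both days against day 0, at -1.94 and -1.95 at day 5, and Fgf7 lies farthest right at day 5, at 2.30 with a line across 0.

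Without the interval rule more of the 10 genes passed the 2-fold difference. At day 5 these were Fgf7 and Fgfr3 higher, against 10.8% of all loci, and Fgf1, Fgf10 and Fgfbp1 lower, against 11.1%. At day 15 Fgfr3 and Hgf were past it upward, against 8.36%, and the same 3 genes downward, against 9.43%. Between day 5 and day 15 Fgf7 alone passed, downward, where 2.62% of all loci were higher and 3.35% lower. The intervals of these genes differ in width. At day 5 the half-width of the interval was 84.9% of the FPKM for Fgf7 and 81.1% for Hgf, against 45.8% for Fgfr3 and 44.0% for Fgfbp1. The median half-width at that day was 52.9% over loci that had an FPKM of 5 or more.

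For the 3 genes that were apart in any comparison, the loci with the most similar levels were found among 12258 expressed loci of 1 symbol, by the Euclidean distance over the 3 group values of log2(FPKM + 1). Nearest to Fgf1 were Cited4, a transcriptional co-regulator (distance 0.13), Tmie (0.21) and Cd40, a receptor of antigen-presenting cells (0.22). Nearest to Fgf10 were Pcsk2, a prohormone convertase (0.10), the glutamate receptor gene Gria1 (0.12) and Adcyap1r1, a neuropeptide receptor gene (0.18). Nearest to Fgfr3 were Gclm, of glutathione synthesis (0.04), Hspg2, which encodes the heparan sulfate proteoglycan perlecan (0.06), and Snhg5 (0.11). Hspg2 stood at 10.3, 29.4 and 26.4 FPKM at days 0, 5 and 15, beside 9.86, 29.4 and 26.3 for Fgfr3. Its day 0 and day 5 intervals, 3.10 to 17.6 and 10.1 to 48.8, overlap. The likeness rests on 3 values per gene and is a description.

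Other genes of the FGF and HGF pathways were taken from 9 lists of 86 genes, all found in the table. Of 61 loci tested at day 5 against day 0, 5 were apart with a higher value, where 3.42% of all loci were, and none with a lower one, where 2.50% were. In all, 36 of these values were higher and 25 lower, against 44.9% and 55.1% over all loci. At day 15, 2 of 60 were higher and apart, against 2.91%, and none lower, against 1.81%, with 32 values higher and 27 lower, against 43.1% and 56.9%. From day 5 to day 15, 1 of 59 was lower and apart, against 0.388%, and none was higher and apart, against 0.395%. Here 42 values were lower and 17 higher, against 51.2% and 48.8% over all loci. With so few calls, 1 or 2 loci decide how the list compares with the background. The loci apart were Fgf23, Flrt2, Sulf2, Plau and Plat.

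Of 14 other FGF ligands, 3 reached an FPKM of 1 in any group, and Fgf3, Fgf4, Fgf5, Fgf6, Fgf8 and Fgf20 were listed at 0 in all 3. Fgf18 stood at 2.25 (0.610 to 3.89), 2.05 and 1.94 FPKM at days 0, 5 and 15. Fgf21, a metabolic hormone, stood at 1.77 (0 to 3.60), 0.10 and 0.724 and was not apart. Fgf23, the phosphate hormone of bone, was at 0.00921 (0 to 0.0476) at day 0, 1.63 (0.0609 to 3.21) at day 5 and 0.141 at day 15. It was higher and apart at day 5, with intervals only 1.28-fold away from each other at their nearest ends, and the call ended with a larger FPKM of 5 or more or a pseudocount of 5. None of the 4 intracellular FGF homologous factors reached 1, the highest being Fgf11 at 0.783 and Fgf14 at 0.692, both at day 15.

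Among 8 other receptors, co-receptors and binding proteins, Flrt2, an adhesion protein that can bind FGF receptors, was higher and apart at both days. Its FPKM was 4.09 (1.73 to 6.46) at day 0, 27.5 (15.5 to 39.5) at day 5 and 21.7 (12.1 to 31.3) at day 15, which is 6.72-fold and 5.31-fold above day 0. Fgfrl1, a receptor without a kinase domain, stood at 4.67, 4.19 and 4.21. The list medians were 0.35 at day 5 and 0.40 at day 15 over 4 loci tested. Of these, 1 was higher and apart at each day, against 3.42% of all loci at day 5 and 2.91% at day 15.

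Heparan sulfate carriers and enzymes set how FGFs reach their receptors. None of 11 proteoglycan loci tested was apart, with a median log2 ratio of 0.21 at day 5 and 0.36 at day 15. Over all loci 3.42% were higher and 2.50% lower and apart at day 5, and 2.91% and 1.81% at day 15. A count of none among 11 is near that background. The most abundant were Sdc1 and Sdc4. Sdc1, the main syndecan of epithelia, stood at 757 (362 to 1151), 261 (143 to 380.2) and 310.2 (169 to 451). Its value was 2.90-fold and 2.44-fold lower than at day 0, with overlapping intervals. Sdc4 stood at 695, 594 and 563 and had the higher value of the pair at days 5 and 15. Hspg2 was 2.85-fold and 2.56-fold higher than at day 0, also with overlapping intervals. Of 13 chain enzymes, 10 had a higher value at day 5, against 44.9% of all loci, and the median was 0.66. Of the 13, 1 was higher and apart, against 3.42% of all loci. This was Sulf2, a sulfatase that trims heparan sulfate at the cell surface, at 0.848 (0.365 to 1.33) at day 0, 8.01 (4.31 to 11.7) at day 5 and 5.62 (3.15 to 8.08) at day 15. It was higher and apart at both days, by 9.45-fold and 6.62-fold. Its relative Sulf1 stood at 10.8 (5.23 to 16.4), 28.2 (15.5 to 40.9) and 16.4, and the day 0 and day 5 intervals just overlapped; it became higher and apart at day 5 when the groups were rescaled by either alternative. Hs6st1 stood at 15.5, 22.4 and 17.0. At day 15 the median of the enzymes was 0.18, and 10 of 13 values were above day 0, against 43.1% of all loci. From day 5 to day 15, 10 of the 13 values were lower, against 51.2% of all loci.

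Signal proteins and readout genes of the pathway are few, and at the shares of 3.42% higher and 2.50% lower over all loci at day 5 a count of none among them is near the background. Of 8 adaptor loci tested none was apart, with medians of 0.18 and 0.00, Shc1 at 34.3, 49.8 and 43.0 FPKM and the phosphatase gene Ptpn11 at 23.7, 16.5 and 13.8. Of 10 ERK feedback inhibitors and ETS factors tested none was apart, with medians of 0.28 at day 5 and -0.02 at day 15. Spry1, a feedback inhibitor of receptor kinases, stood at 48.1 (23.9 to 72.2), 34.8 (16.2 to 53.4) and 46.5 (24.6 to 68.3), and Dusp5, an ERK phosphatase, at 18.2, 11.0 and 13.4. The intervals of these genes are wide, and a modest difference would not have been detectable.

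**Figure D4:**
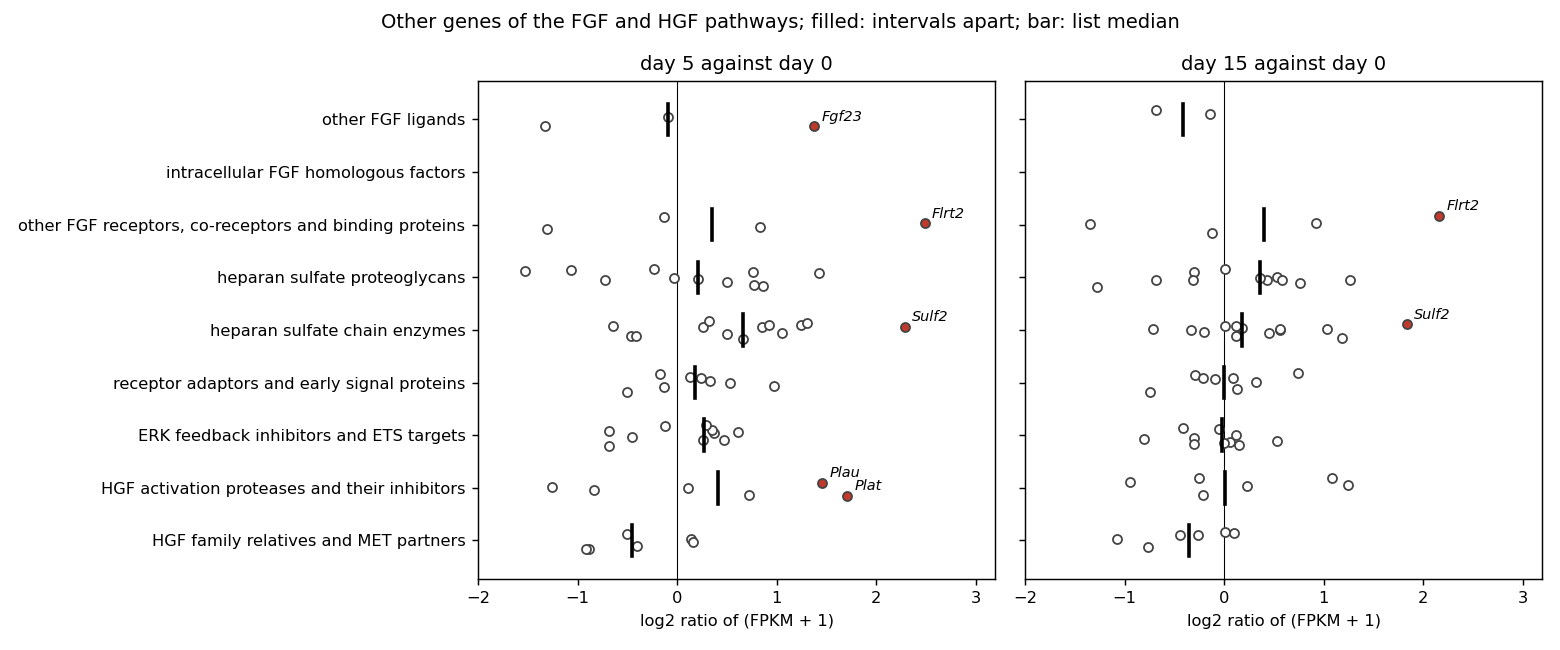
Log2 ratios of (FPKM + 1) (x axis) at day 5 and day 15 against day 0 for the other pathway genes by list (y axis); each point is a tested locus, filled red where higher and apart, and the bar is the list median. Flrt2 and Sulf2 are filled at both days, and Fgf23, Plau and Plat at day 5 only by this rule, which does not test the days against each other.

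Around Hgf, 2 of 6 loci tested, proteases that can cut its precursor, were higher and apart at day 5, against 3.42% of all loci. No other locus of this list was apart at day 5 in either direction, where 2.50% of all loci were lower and apart. Plau, urokinase, stood at 22.0 (10.3 to 33.7) at day 0, 62.0 (34.2 to 89.9) at day 5 and 53.6 (30.0 to 77.2) at day 15. Plat, the tissue plasminogen activator, stood at 17.8 (9.28 to 26.4), 60.7 (34.2 to 87.1) and 21.1 (11.4 to 30.9), and was also lower and apart at day 15 against day 5, by 2.87-fold. Plau was 2.82-fold higher at day 5 and Plat 3.40-fold. The nearest ends of the day 0 and day 5 intervals were only 1.02-fold away from each other for Plau and 1.30-fold for Plat. At day 15 Plau was 2.44-fold above day 0, with overlapping intervals. The inhibitor gene Spint2 was far more abundant, at 299 (157 to 440.3), 124 (67.8 to 180.4) and 154, and was not apart. The 6 loci tested of this list had a median of 0.42 at day 5 and 0.01 at day 15. Of 6 relatives of HGF and partners of MET none was apart, a count near the background at these shares. Their medians were -0.45 and -0.35, with Cd44 at 78.5, 55.1 and 36.6 and Lrig1, an inhibitor of receptor kinases, at 35.8, 18.6 and 20.7.

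Markers of the cell types that a whole cornea can hold also differed between the groups, and their part in the results above was not tested. Beside the counts that follow, 3.42% of all loci were higher and 2.50% lower and apart at day 5. At day 15 these shares were 2.91% and 1.81%. Of 10 keratocyte loci tested, 5 were lower and apart and 1, Thy1, was higher and apart at day 5, and 4 and 1 at day 15. Their summed FPKM was 5867 at day 0, 2947 at day 5 and 4091 at day 15, and none of them was at 0. Kera stood at 516, 11.2 and 16.2, while Lum stood at 237, 243 and 286. Of 10 epithelial loci, 3 were lower and apart at day 5 and 1 at day 15, while 4 of the 10 had higher values than at day 0 on each day. Their sums were 14504, 4825 and 8051 FPKM, of which Aldh3a1 alone, a corneal crystallin enzyme, made up 9150, 303 and 866. Without it, a choice made after seeing the data, the sums were 5354, 4522 and 7186, so that day 15 lay above day 0. These sums run over 11 loci, since they include Krt12, which is listed at 0 at day 0 with a status of too much data, a failed estimate and no level, and at 6.81 and 9.67 FPKM at days 5 and 15. Of 10 fibroblast and myofibroblast loci, 6 at day 5 and 5 at day 15 were higher and apart, with sums of 234, 2152 and 1743. Of 8 vessel loci 5 were higher and apart at each day, with sums of 21.0, 78.0 and 82.0.

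Markers of neighbouring tissues and of blood cells were also present. The same shares over all loci stand beside their counts, 3.42% higher and 2.50% lower at day 5 and 2.91% and 1.81% at day 15. The 7 lens loci had summed FPKM of 352, 49.5 and 238 at days 0, 5 and 15, and the 6 iris and pigment loci had 363, 84.9 and 248.1. Of the lens loci 4 were lower and apart at day 5 and none at day 15, and of the pigment loci 1 and none. The 6 skeletal muscle loci summed to 508, 322 and 68.4, with none apart at day 5 and 3 lower and apart at day 15. Of 8 neutrophil loci tested at day 5, 6 were higher and apart. The sums at days 0, 5 and 15 were 37.9, 1653 and 867, over all rows of these genes, also those not tested. Without Ltf, which has the largest FPKM of the list, the sums were 22.2, 404 and 104. Of 8 macrophage loci, 3 at day 5 and 5 at day 15 were higher and apart, and their sums of 698, 1129 and 1378 include a merged locus of Cd68 and 5 other genes. Of 7 conjunctival and goblet loci, 3 at day 5 and 5 at day 15 were higher and apart, with sums of 1730.2, 4014 and 10312, and Tff1 was at 0 at day 0. Of 6 corneal endothelial loci, Slc4a11 was lower and apart at both days, Col8a1 higher and apart at both and Car2 at day 15.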

How the data were processed

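The authors deposited 1 Cuffdiff gene table of FPKM per locus. Per the submitters' processing notes, the tools were Bowtie2 2.2.6 and TopHat2 2.1.0, then Cuffdiff and Cufflinks 2.2.1, on mm10; parameters, annotation and the interval's level are not given in the sources used here. Per the file headers, each group has an FPKM, a lower and an upper bound and a status; the bounds were used as deposited. There are 6 samples in 3 groups of 2, and 0 columns for single samples, so a planned limma fit was not run. Depth is unknown, and the median half-width of the intervals was 54.3%, 52.9% and 52.3% of the FPKM at days 0, 5 and 15, over loci with an FPKM of 5 or more.

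Loci were compared by log2 ratios with a pseudocount of 1, a larger FPKM of 1 or more, a log2 ratio of 1 or more in size and intervals that do not overlap, over all loci with status OK in both groups. The code of the rule was tested on simulated data. The genes, lists, motifs and rules were chosen with earlier results of these data known. Named were the 10 genes and every other pathway gene apart with the 2 of largest FPKM in each list. Up to 3 nearest loci were named for each gene apart, and markers of 2 genes or fewer per list beside those counted. G630022F23Rik and the other overlapping genes were named for their position. Krt14, Aldh3a1 and Ltf were named after their values were seen. The summed level of the endothelial markers is not reported here. A plan to print proteins was not followed, as no protein table was used here. Alternatives varied the pseudocount, filter, fold, intervals, scaling and summing of loci. Gene positions are 1-based from GENCODE M21. Python 3.11.15, numpy 2.4.6, pandas 2.3.3 and matplotlib 3.10.9 were used.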

Additional observations from a re-analysis of the deposited data

How the results depend on the processing

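The number of the 10 genes apart was 3 for days 5 and 0, 2 for days 15 and 0, and 0 for days 15 and 5. A pseudocount of 5 left 1 and 0 genes in the comparisons with day 0, since it shrinks low genes by construction. A 4-fold difference left 0 and 0. A larger FPKM of 5 or more left 2 at day 5 and 1 at day 15, without Fgf10. Dropping the interval rule gave 5, 5 and 1. Rescaling by the median ratio or by the upper quartile kept the count at day 15 at 2 but replaced Fgf1 by Fgfr3, with factors of 1.04, 0.966 and 0.993 for days 0, 5 and 15 by the median ratio. Both rescalings kept Fgf1, Fgf10 and Fgfr3 at day 5. A pseudocount of 0.1, no filter, a 1.5-fold difference and summing loci of 1 symbol gave the same genes in all 3 comparisons. Of the other pathway genes, 5, 2 and 1 were apart in the same order of comparisons. A 4-fold difference left 2, 1 and 0, a pseudocount of 5 left 4, 1 and 1, and a larger FPKM of 5 or more left 4, 2 and 1. Both rescalings gave 6, 2 and 1, and dropping the interval rule gave 14, 10 and 2 of the 61, 60 and 59 loci tested. Without that rule 10.8% of all loci were higher and 11.1% lower at day 5, and 8.36% and 9.43% at day 15. For day 15 against day 5 the shares were 2.62% and 3.35%, so the counts without intervals are near the background. Of 15576 loci tested at day 5, 308 were higher and 199 lower and apart with a 4-fold difference. The main rule gave 533 and 389, and 1687 and 1722 passed without intervals. Rescaled by the median ratio, 597 of 15594 loci were higher and 342 lower and apart at day 5. Of the 10 genes' log2 ratios under other pseudocounts and scalings, 116 of 120 stayed within the authors' interval ends, and the 4 that moved were those of Fgf10 under other pseudocounts, between -4.14 and -0.68. The scaling factors are near 1 and the interval ends wide, so rescaled ratios could hardly leave them and their count says little. A ratio within the ends can still lose its call, as that of Fgf1 did at day 15 under both rescalings. No paired analysis was possible because the table holds only values pooled over the samples of a group, and for the same reason no sample could be left out. Intervals reach 0 in at least 1 group for Fgf2, Fgf7, Fgf10 and Hgf, which limits the folds of these genes.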
